A study of Sus scrofa with 18 samples.

Results

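The transcripts described here encode the nuclear subunits of the respiratory chain and of ATP synthase in the free wall of the pig right ventricle. Members were chosen by gene symbol: genes with a single symbol in the probe annotation that starts with NDUF, SDH, UQCR, ATP5 or COX and a digit, or that is CYC1 or CYCS. This rule matched 66 of the 6765 genes with a single symbol. Of these, 60 encode subunits: 32 of complex I, 4 of complex II, 2 of complex III, 8 of complex IV, 13 of complex V and cytochrome c. The other 6 were kept apart, namely the assembly factors NDUFAF1, NDUFAF2, NDUFAF3, SDHAF2 and COX10, and ATP5S, a coupling factor of ATP synthase. NDUFA4 was counted in complex IV, to which its protein belongs despite its symbol. Each gene was read from 1 probe set, the one with the highest mean over all arrays.

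RNA was measured on 18 Affymetrix arrays from 9 pigs bred from Hampshire, Yorkshire and Swedish Landrace stock, each pig sampled at baseline and again in failure of the right ventricle after coronary arteries on its free wall had been ligated. For pigs 6, 8, 9, 11, 12 and 13 (label set 1) the failure label gives 120 min of ischemia. For pigs 5, 10 and 14 (label set 2) the labels give a body weight of 30 to 40 kg and define failure as a right atrial pressure above 20 mmHg. Each pig was its own control, and none of the arrays comes from a sham-operated or time-matched animal, so ischemia, failure, surgery and time under anaesthesia cannot be told apart. The question is how transcript levels in the failing wall compare with those of the same wall before ligation.

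Oxidative phosphorylation makes most of the ATP of the working heart. Complexes I (NADH dehydrogenase) and II (succinate dehydrogenase) pass electrons to ubiquinone, complex III hands them on to cytochrome c, and complex IV (cytochrome c oxidase) passes them to oxygen. The protons pumped on the way drive complex V, the ATP synthase. Cardiomyocytes are packed with mitochondria, and these transcripts are abundant in ventricular muscle.

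The tissue label was borne out by its markers. Of 12 cardiomyocyte markers, 11 were measured, at mean log2 intensities from 10.27 to 14.95, whereas the 3 measured skeletal muscle markers lay between 3.28 and 5.35. The arrays of pig 5 stood apart. This pig had the lowest value of the 9 for 41 of 60 subunits at baseline and for 46 of 60 in failure. On its arrays the 3' probe set of GAPDH exceeded the 5' probe set by 2.61 log2 units at baseline and by 3.55 in failure, against 0.61 to 1.49 and 0.31 to 2.17 in the others. This difference is a common sign of RNA quality, since labelling starts at the poly(A) tail and broken RNA loses signal from its 5' part. Some results that rest on pig 5 are given with and without it. Others are given only with it. Among these, its log2 change from baseline to failure was the lowest of the 9 for NDUFS3 (-0.55), NDUFAB1 (-0.51), ATP5G1 (-0.49) and ATP5A1 (-0.37).

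Subunit transcripts were bright. Of the 60, 58 lay above the 95th percentile of the array and had a mean log2 intensity of at least 10. The median level was 11.63 in complex I, 11.86 in complex II, 12.91 in complex III, 13.25 in complex IV and 12.99 in complex V, and CYCS, which encodes cytochrome c, lay at 11.86. Probe sets differ in affinity, so these levels place each complex on the array and do not rank amounts of RNA. A mean level above 13 was reached by 12 of 60: UQCRB, NDUFA4, COX5B, COX6C, COX7A1, COX7C, ATP5A1, ATP5B, ATP5E, ATP5G1, ATP5G3 and ATP5O. The brightest probe set was that of NDUFA4, at 13.67 to 14.10 over the baseline arrays (median 14.04) and 13.42 to 14.16 over the failure arrays (median 13.96). The exceptions at the dim end were both in complex I: NDUFS6, a subunit of the electron input module, with a mean level of 9.54, and NDUFV3, an accessory subunit of the same module, at 6.47.

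**Figure D1:**
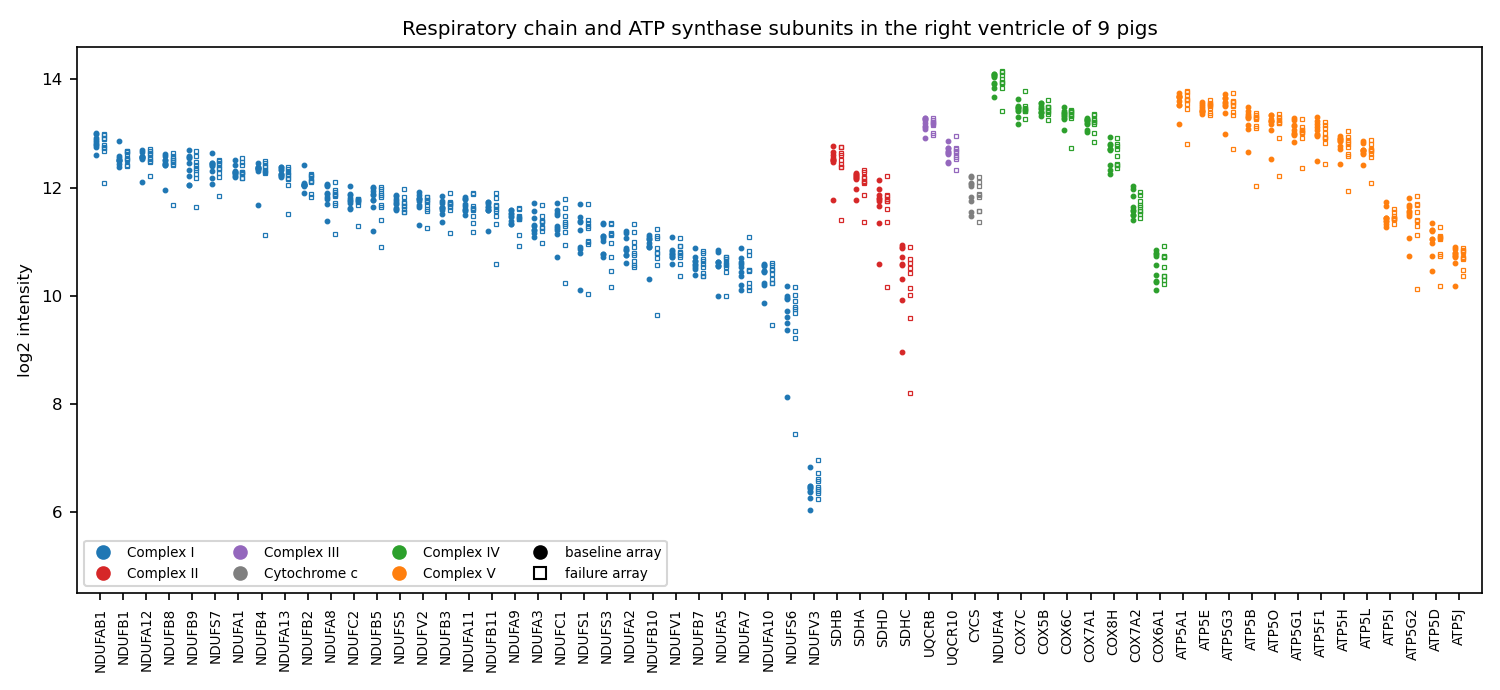
Log2 intensity of 60 subunit transcripts on every array, with 1 column pair per gene (filled circles, 9 baseline arrays; open squares, 9 failure arrays) and colours for the complexes. Baseline and failure points overlap for every gene, all but NDUFS6 and NDUFV3 have a mean of at least 10, and the lowest points of most genes belong to pig 5.

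None of the 60 subunits passed the threshold between failure and baseline (limma, pig as a block, adjusted p under 0.05 over all 23935 tested probe sets), where 0.0668% of all tested probe sets passed. The count at an unadjusted p under 0.05 in limma was also 0 of 60 at the brightest probe set of each gene, against 1470 of 23935 probe sets (6.14%). An unmoderated paired test gave 0 past the threshold and 1 of 60, ATP5F1, at an unadjusted p under 0.05. Adjusted p-values of the brightest probe sets in limma ran from 0.841 to 0.9998. Some dimmer probe sets of NDUFS3, ATP5L and ATP5J, given below, had lower ones that did not pass. The changes were small: for 57 of 60 the 95% interval of the log2 change lay between -0.32 and 0.32, and the exceptions were SDHC, NDUFS6 and NDUFB10. In bulk tissue a lower signal from fewer cardiomyocytes and one from less RNA per cell cannot be told apart.

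The small differences leaned to one side. The mean paired change was below 0 for 47 of 60 subunits (78.3%) and above 0 for 13, against 53.4% below 0 of the 6705 other named genes and 58.7% of the 622 other named genes with a mean level of at least 10. The median log2 change was -0.05 over the 60 subunits and -0.01 over all 6765 named genes. The GAPDH 3'/5' difference was higher in failure in 6 of 9 pigs, and with it as a covariate 30 subunits were lower and 30 higher (median -0.000261). Without pig 5 the median of the subunits was -0.02, with 40 lower and 20 higher. Without pig 9 it was -0.08, with 52 lower and 8 higher, and without pig 13 it was -0.03, with 46 lower. No subunit moved the same way in 9 of 9 pigs. ATP5F1 was lower in 8 of 9, and 6 subunits went the same way in 7 of 9: SDHB, ATP5H, NDUFA2, NDUFAB1 and NDUFB5 were lower and NDUFB3 was higher. How often other genes went the same way in as many pigs was not counted, so these counts do not set the subunits apart. Some of the changes counted were close to no change, such as those of SDHB in pigs 6 (-0.0031) and 10 (-0.0037). A second NDUFB3 probe set, at a mean level of 11.47 against 11.63, had a change of -0.06, against 0.02 at the brighter one.

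**Figure D2:**
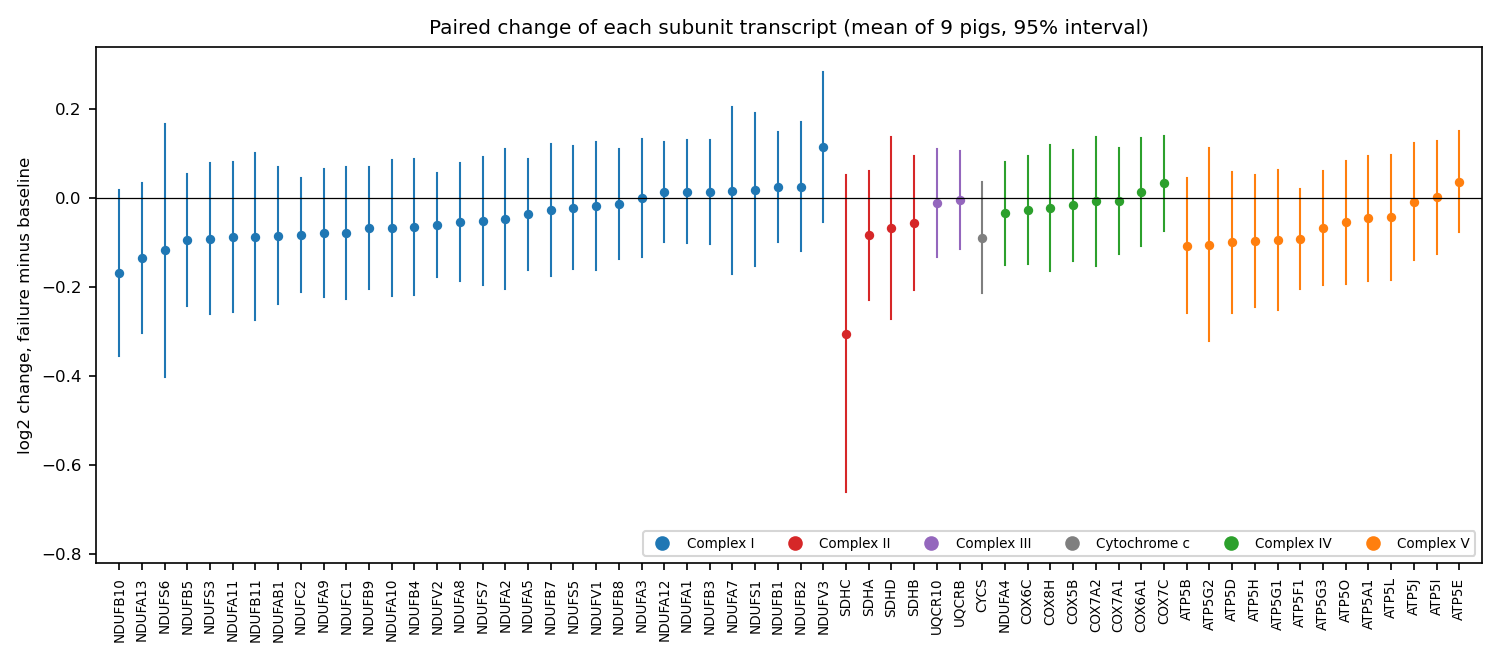
Mean paired log2 change, failure minus baseline, of each subunit over 9 pigs (point) with its 95% interval (line), ordered within each complex. Every interval, as given by limma, includes 0, and that of SDHC is the widest, from -0.66 to 0.05.

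In complex I, 23 of 32 subunits were lower on average and 9 higher, with a median change of -0.05 and 0 past the threshold. Of its core subunits outside the membrane, which hold or surround its flavin and iron-sulphur centres, 5 were measured. NDUFS1, the largest iron-sulphur subunit, ran from 10.10 to 11.70 at baseline (median 11.22) and from 10.03 to 11.70 in failure (median 11.26), and its change was 0.02 (SE 0.08). NDUFS7, which holds the last iron-sulphur cluster before ubiquinone, had a change of -0.05 (SE 0.07). NDUFV1, which binds NADH and flavin, had a change of -0.02 (SE 0.07), and its partner NDUFV2 one of -0.06 (SE 0.05). NDUFS3 had a change of -0.09 (SE 0.08). The values of these 5 subunits overlapped between baseline and failure in each case.

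The other 27 complex I genes encode accessory subunits, of which 19 were lower on average. NDUFB10, a subunit of the membrane arm, ran from 10.31 to 11.12 at baseline (median 10.98) and from 9.65 to 11.24 in failure (median 10.79). The groups overlapped, with 6 pigs lower and 3 higher, and the change was -0.17 (SE 0.09, 95% interval -0.36 to 0.02). Among the brightest probe sets of the 60 subunits, NDUFB10 had the smallest p without passing in limma (adjusted p = 0.841). Without pig 5 its change was -0.11.

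NDUFA13, also known as GRIM-19, had values of 12.20 to 12.38 at baseline (median 12.26) and of 11.51 to 12.38 in failure (median 12.23). Its change of -0.13 (SE 0.08) rested on pig 5, where it was -0.75, and was -0.06 without that pig. NDUFS6 ran from 8.12 to 10.18 at baseline (median 9.71) and from 7.43 to 10.16 in failure (median 9.76), with pig 5 lowest in both. Its change of -0.12 (SE 0.13) spread over pigs with an SD of 0.50, from -0.97 in pig 13 to 0.67 in pig 9.

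NDUFB11, another subunit of the membrane arm, had a change of -0.09 (SE 0.09) and of -0.02 without pig 5. NDUFAB1, the mitochondrial acyl carrier protein, ran from 12.59 to 13.01 at baseline (median 12.84) and from 12.08 to 12.98 in failure (median 12.78), and its change was -0.08 (SE 0.07). At the other end of the complex lay NDUFV3, whose dim probe set ran from 6.03 to 6.84 at baseline (median 6.43) and from 6.25 to 6.96 in failure (median 6.47). Its change of 0.12 (SE 0.08) was 0.04 without pig 9.

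All 4 complex II subunits were lower on average, with a median change of -0.08 that was -0.03 without pig 5, and 0 passed. The SD over the baseline arrays was 0.16 for SDHA and 0.28 for SDHB, and 0.64 for SDHC and 0.46 for SDHD. SDHA, the flavoprotein that oxidises succinate, ran from 11.78 to 12.26 at baseline (median 12.19) and from 11.36 to 12.32 in failure (median 12.11), and had a change of -0.08 (SE 0.07). SDHB, the iron-sulphur subunit, had a change of -0.06 (SE 0.07) and was lower in 7 of 9 pigs.

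SDHC and SDHD anchor complex II in the inner membrane and hold its haem and ubiquinone site. SDHC ran from 8.96 to 10.94 at baseline (median 10.58) and from 8.19 to 10.89 in failure (median 10.42). The groups overlapped over nearly their whole range, with pig 5 lowest in both. The mean change of -0.30 (SE 0.17, 95% interval -0.66 to 0.05) was the lowest of the 60 subunits, a 1.24-fold lower level with an interval from -36.8% to 3.66%, and did not pass in limma (adjusted p = 0.853). Pigs differed widely: SDHC was lower in pigs 5 (-0.77), 6 (-0.05), 8 (-0.75), 12 (-0.93) and 13 (-1.30) and higher in pigs 9 (0.31), 10 (0.05), 11 (0.50) and 14 (0.19). Leaving out pig 13 gave -0.18 and leaving out pig 11 gave -0.41. SDHD ran from 10.58 to 12.14 at baseline (median 11.80) and from 10.16 to 12.21 in failure (median 11.75), and its change of -0.07 had an SD of 0.33 over pigs.

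Complex III was read from UQCR10 and UQCRB, small subunits without a redox centre. UQCR10 had a change of -0.01 (95% interval -0.13 to 0.11) and UQCRB one of -0.00448 (-0.11 to 0.11). UQCRB lay between 12.92 and 13.29 at baseline (median 13.20) and between 12.97 and 13.29 in failure (median 13.20). CYCS ran from 11.47 to 12.21 at baseline (median 12.04) and from 11.37 to 12.19 in failure (median 11.87). It was lower in 6 of 9 pigs, with a change of -0.09 (SE 0.06, adjusted p = 0.887 in limma).

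Complex IV subunits had the smallest changes among the complexes with more than 2 measured genes: 6 of 8 were lower, the median was -0.01, and the range was -0.03 (NDUFA4) to 0.03 (COX7C). The sign of this median was not stable, since it was above 0 without pig 5, 8 or 11 (0.00809, 0.00632 and 0.01, with 3 of 8 lower in each case), in label set 1 alone (0.00841, with 2 of 8 lower) and with the GAPDH 3'/5' difference as covariate (0.00943, with 3 of 8 lower).

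Subunit 7a of this complex has a heart and muscle isoform, COX7A1, and a widely expressed one, COX7A2. COX7A1 ran from 13.02 to 13.29 at baseline (median 13.23) and from 12.85 to 13.36 in failure (median 13.22). COX7A2 ran from 11.39 to 12.03 at baseline (median 11.58) and from 11.44 to 11.92 in failure (median 11.64). Both had a change of -0.01, with 95% intervals of -0.13 to 0.11 and -0.15 to 0.14, so neither isoform differed beyond its spread.

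Of the other isoforms, COX8H, the heart form of subunit 8, had a change of -0.02 (SE 0.07), and COX6A1, the widely expressed form of subunit 6a, one of 0.01 (SE 0.06). COX5B, a zinc-binding subunit, lay between 13.33 and 13.57 at baseline (median 13.45) and between 13.24 and 13.61 in failure (median 13.44). COX7C had the smallest spread of the 60, an SD of 0.07 over pigs, with values from 13.18 to 13.64 at baseline (median 13.47) and from 13.27 to 13.78 in failure (median 13.45). The COX7C values of the failure arrays overlapped those of the baseline arrays.

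In complex V, 11 of 13 subunits were lower on average, with a median change of -0.07 and 0 past the threshold. Without pig 5 the median was -0.04, and without pig 13 also -0.04. The catalytic F1 part was read from ATP5A1 (alpha), ATP5B (beta), ATP5D (delta) and ATP5E (epsilon), of which 3 were lower. ATP5A1 ran from 13.18 to 13.75 at baseline (median 13.67) and from 12.81 to 13.78 in failure (median 13.62), with a change of -0.04 (SE 0.07). ATP5B, which holds the catalytic sites, ran from 12.65 to 13.49 at baseline (median 13.31) and from 12.03 to 13.37 in failure (median 13.28). Its change of -0.11 (SE 0.07) was -0.04 without pig 5, the lowest pig in both groups. ATP5E had the highest change of the complex, 0.04 (SE 0.05).

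ATP5G1, ATP5G2 and ATP5G3 encode the same mature c subunit, which forms the rotating ring in the membrane. Their changes were -0.09 (SE 0.07), -0.10 (SE 0.10) and -0.07 (SE 0.06). ATP5G1 and ATP5G3 were bright, at mean levels of 13.03 and 13.48, and had SDs of 0.22 and 0.15 over pigs. ATP5G2 had an SD of 0.36, with values from 10.73 to 11.80 at baseline (median 11.54) and from 10.12 to 11.85 in failure (median 11.40). It was lower in 4 pigs and higher in 5, so that its mean below 0 came from the larger changes of pigs 5 (-0.61) and 13 (-0.68).

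Of the 6 measured genes of the stalks and the membrane part, 5 were lower on average. ATP5F1, the older symbol of the b subunit of the peripheral stalk, was the subunit with the most uniform direction: it ran from 12.49 to 13.30 at baseline (median 13.07) and from 12.44 to 13.21 in failure (median 12.94), and was lower in every pig but pig 14 (0.05). Its change was -0.09 (SE 0.05, adjusted p = 0.864 in limma), and it lay between -0.11 and -0.07 when each pig was left out in turn. The SD of this change over pigs was 0.09. Its values were deposited with fewer decimals than those of the other subunits. In the unmoderated paired test ATP5F1 had an unadjusted p under 0.05 but did not pass after adjustment. ATP5J, coupling factor 6, had a change of -0.00773 (SE 0.06).

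**Figure D3:**
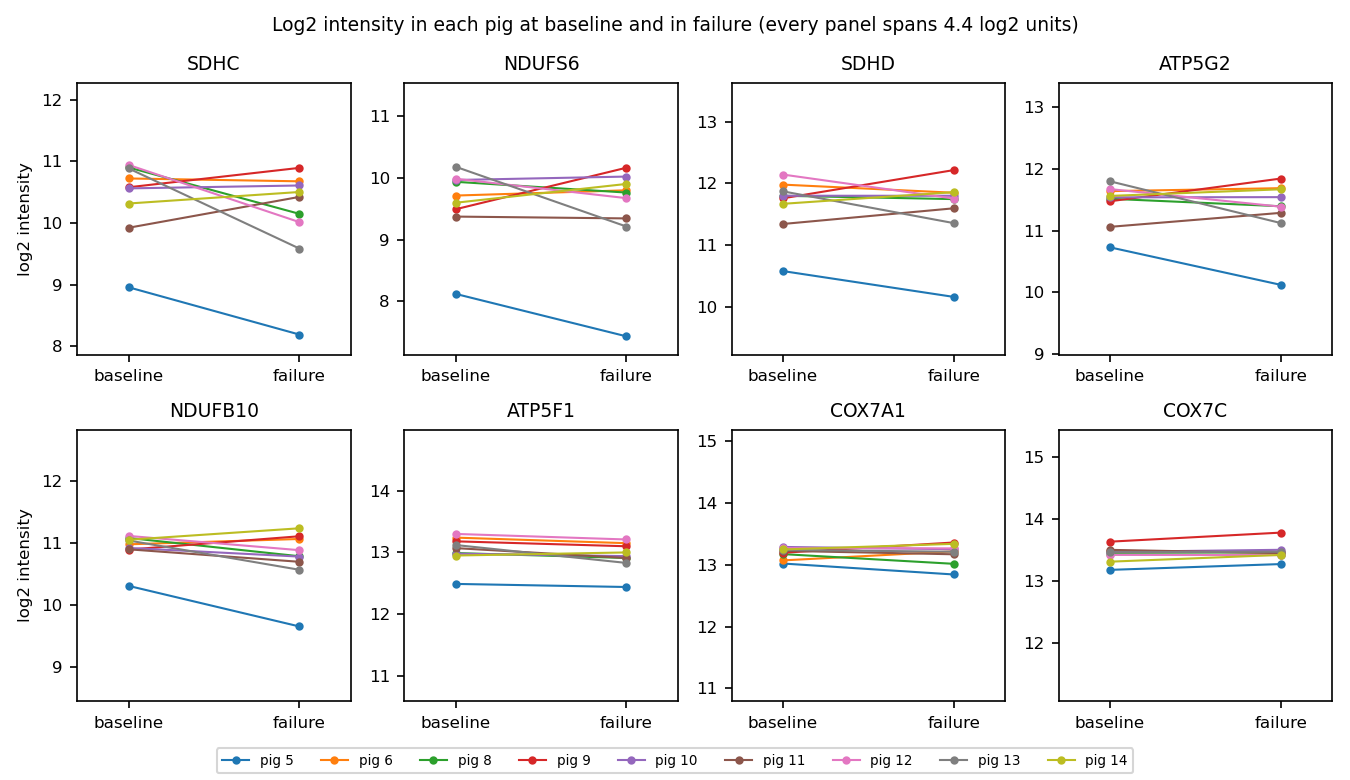
Log2 intensity of 8 subunit transcripts in each pig at baseline and in failure, 1 line per pig, with the same height of 4.4 log2 units in every panel. Lines of SDHC, NDUFS6, SDHD and ATP5G2 run both up and down and pig 5 lies lowest, whereas the lines of ATP5F1, COX7A1 and COX7C are nearly flat.

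The subunits went in different directions in different pigs. In pig 5, 54 of 60 were lower in failure (median change -0.25), in pig 8, 55 (-0.13), in pig 11, 46 (-0.10), in pig 13, 44 (-0.13) and in pig 12, 38 (-0.05). In pig 9, 52 of 60 were higher (median 0.19), in pig 14, 54 (0.09) and in pig 6, 37 (0.04). Pig 10 was split, with 31 lower and 29 higher. The median over all named genes stayed between -0.06 (pig 5) and 0.03 (pig 6). The median over the 622 other named genes with a level of at least 10 ran from -0.08 in pigs 5 and 13 to 0.06 in pig 9. In pig 12 it was -0.05, as for the subunits. Of these 622 genes, 390 were lower in pig 5, 303 in pig 8, 279 in pig 11, 406 in pig 13 and 381 in pig 12. In pigs 9, 14, 6 and 10 the counts of lower genes were 235, 239, 305 and 289.

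The sizes differed by complex, a difference that was not tested. In pig 5 the median change was -0.42 in complex II, -0.33 in complex V and -0.25 in complex I, but -0.08 in complex IV and -0.02 in complex III. In pig 9 it was 0.28 in complex II, 0.22 in complex I, 0.18 in complex V, 0.14 in complex III and 0.13 in complex IV. The SD over pigs of a complex's median change was 0.25 for complex II, 0.16 for complex V, 0.15 for complex I, 0.09 for complex IV and 0.08 for complex III. In pig 11 complex II (0.18) and complex IV (-0.13) lay on opposite sides of 0.

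The GAPDH 3'/5' difference moved with these changes in most pigs. It was higher in failure by 1.18 in pig 13, 0.94 in pig 5, 0.55 in pig 12 and 0.25 in pig 8, in all of which the subunit median was below 0, and lower by 0.44 in pig 9 and by 0.33 in pig 14, in both of which the subunit median was above 0. Its change was within 0.1 of 0 in pigs 6, 10 and 11, whose subunit medians were 0.04, -0.00210 and -0.10. Over 9 pigs its change was 0.237 ± 0.556 (SD), with 6 of 9 higher (p = 0.246 in a two-sided exact permutation test that flips signs). Cardiomyocyte markers as a list had median changes of -0.17 in pig 5 and -0.12 in pig 13 and between -0.04 and 0.03 in the other pigs, and 9 of the 11 were lower on average over pigs (median -0.04, 0 past the threshold). The part of cardiomyocyte content in the subunit changes was not tested.

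**Figure D4:**
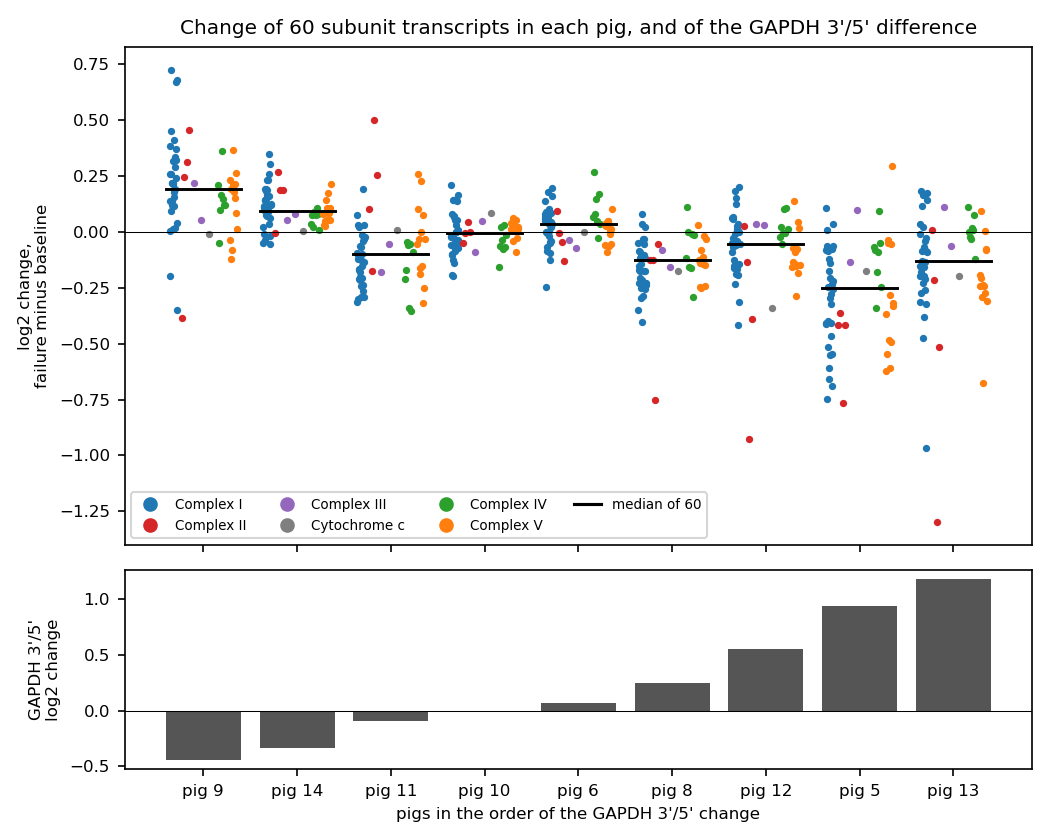
Upper panel: log2 change, failure minus baseline, of each of 60 subunits (points, coloured by complex) in each pig, with the median as a bar. Lower panel: change of the GAPDH 3'/5' log2 difference, in whose order the pigs stand, from -0.44 in pig 9 to 1.18 in pig 13; the subunit medians run from 0.19 in pig 9 to -0.25 in pig 5 and -0.13 in pig 13.

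When the GAPDH difference entered the fit as a covariate within pigs, the median change of the 60 subunits was -0.000261, with 30 lower and 30 higher, and 0 passed in limma (0 at an unadjusted p under 0.05). The slope on the covariate, the log2 difference in a transcript that went with 1 log2 unit of the GAPDH difference, was negative for 57 of 60 subunits (95%), against 68.6% of the 622 other bright genes, and its median over the subunits was -0.19. For 4 of 60 subunits (6.67%) the slope passed the threshold, where 0.769% of all tested probe sets and 2.41% of the other bright genes passed. These were SDHC with a slope of -1.03 (SE 0.16, adjusted p = 0.0170), NDUFS6 with -0.87 (SE 0.10, adjusted p = 0.00514), ATP5G2 with -0.63 (SE 0.10, adjusted p = 0.0165) and SDHD with -0.56 (SE 0.10, adjusted p = 0.0319), all from limma. They are also the 4 subunits whose change had an SD over 0.3 between pigs, with NDUFB11 just below at 0.297. The size of a slope on a shared covariate scales with this SD, so the overlap is partly built in. Beside the covariate, the changes between failure and baseline were -0.06 for SDHC, 0.09 for NDUFS6, 0.04 for ATP5G2 and 0.07 for SDHD.

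These slopes rest on few animals. NDUFS6 passed in each of the 9 fits with 1 pig left out. Without pig 9, 13 or 14 it was the 1 subunit that passed, and without pig 10, 11 or 12 SDHD no longer passed and 3 did. The SDHC slope lay between -0.96 (without pig 11) and -1.15 (without pig 5). Without pig 5, 49 of 60 slopes were negative and the same number of subunits, 4, passed. After quantile normalization 43 of 60 slopes were negative, with a median of -0.11, and 3 passed.

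By complex, the median slope was -0.43 in complex II, -0.27 in complex V, -0.21 in complex I, -0.18 for CYCS, -0.05 in complex IV and -0.02 in complex III. All 13 slopes of complex V and 30 of 32 of complex I were negative. The slopes above 0 were those of NDUFV1 (0.10), NDUFA3 (0.02) and COX8H (0.02). Over the 60 genes, the SD of the change between pigs and the slope had a Spearman correlation of -0.77, and the mean level and the SD of the change one of -0.53. The first of these is partly built in, since a slope scales with the SD of the change. Both describe genes read from the same 18 arrays, which are not independent.

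**Figure D5:**
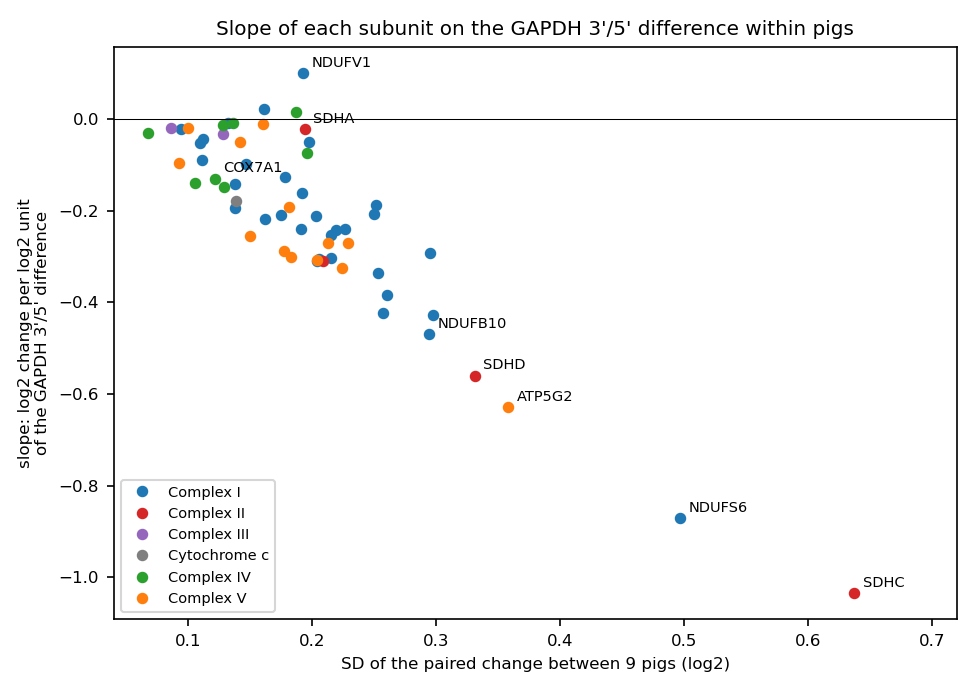
Slope of each subunit on the GAPDH 3'/5' log2 difference within pigs (vertical axis) against the SD of its paired change between 9 pigs (horizontal axis), coloured by complex. SDHC, NDUFS6, ATP5G2 and SDHD lie at the lower right with slopes from -1.03 to -0.56, and the complex IV points lie between -0.15 and 0.02.

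Probe sets of the same gene differed in this slope for some genes. In 11 of the 60 subunit genes more than 1 probe set carried the symbol, with 14 dimmer probe sets in all, of which 9 had a change of the same sign as the brightest and 6 lay below the array median of 5.63. The bright SDHA probe set, at 12.10, had a slope of -0.02, whereas the dimmer one, at 7.18, had a slope of -0.86 (adjusted p = 0.0194 in limma). The NDUFS3 probe sets, at 10.98, 10.42 and 8.46, had slopes of -0.42, -0.34 and -0.89, of which the last passed (adjusted p = 0.0161 in limma). A dim ATP5L probe set, at 5.98, had a slope of -0.73 (adjusted p = 0.0368 in limma), against -0.19 for the bright one at 12.66. Other dimmer probe sets had slopes above 0 that did not pass. Among them were SDHB at 8.20 (0.27, against -0.31 at its brightest) and NDUFV2 at 7.62 (0.27, against -0.09). The NDUFS6 probe set at 3.12 also had a slope above 0 (0.12, against -0.87). NDUFV2 had a change of -0.06 at its brightest probe set and of 0.12 and 0.11 at the dimmer ones, so the sign for this gene depended on the probe set, as for NDUFB3. The dimmer probe sets of ATP5J and NDUFS6, at 2.72 and 3.12, also had the other sign. That of ATP5J had a change of 0.17 (SE 0.08, adjusted p = 0.812 in limma). The ATP5L probe set at 5.98 had a change of -0.32 (SE 0.12, adjusted p = 0.705 in limma), against -0.04 at the brightest.

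Between the label sets, with 6 and 3 pigs, the interaction was tested in limma, and 0 of 60 subunits passed, as did 0% of all tested probe sets. Also 0 of 60 had an unadjusted p under 0.05. Differences, label set 2 minus label set 1, ran from -0.23 for NDUFA13 to 0.19 for SDHC, with adjusted p from 0.923 to 0.998. The mean NDUFA13 change was -0.06 ± 0.12 (SD over 6 pigs) in label set 1. In label set 2, which holds pig 5, it was -0.29 ± 0.40 (SD over 3 pigs), and the difference did not pass (adjusted p = 0.923 in limma). NDUFA5 (-0.09 ± 0.13 and 0.08 ± 0.07) and ATP5J (-0.07 ± 0.13 and 0.11 ± 0.17) had the next smallest p. The median change over the subunits was -0.05 in label set 1 and -0.06 in label set 2.

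Genes that work beside the subunits were read from lists of known function, and none of their members passed between failure and baseline. Their counts of lower genes stand beside 53.4% of the other named genes and 58.7% of the other bright genes. Of 42 listed assembly factors 16 were measured, 13 of them lower (median -0.04), and these include the assembly factors kept apart above. OXA1L, which inserts subunits into the inner membrane, had a change of -0.02 (SE 0.05), and TMEM70, needed to build ATP synthase, one of -0.12 (SE 0.08). Of the 17 regulators of respiratory gene transcription and mitochondrial DNA, 6 were measured and 6 were lower, with a median of -0.02. PPARGC1A, a coactivator of mitochondrial gene programmes, ran from 8.44 to 10.72 at baseline and from 9.04 to 10.45 in failure, with a change of -0.04 (SE 0.11), and TFAM, which packages mitochondrial DNA, had a change of -0.01 (SE 0.08).

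Carriers and phosphocreatine enzymes move ATP from the matrix to the myofibrils. The list of 11 genes also holds the uncoupling proteins UCP2 and UCP3, and 9 of the 11 were lower on average (median -0.05). UCP2 and UCP3 were both lower and lay below the array median, at 4.35 and 4.56. UCP2 had the lowest change of the list, -0.16. The heart ADP/ATP carrier SLC25A4 lay at 14.003 to 14.15 at baseline and at 13.95 to 14.20 in failure, with a change of 0.01 (SE 0.05), and the mitochondrial creatine kinase CKMT2 had a change of -0.08 (SE 0.07). Of 13 measured genes of the tricarboxylic acid cycle 12 were lower (median -0.05), with OGDH, a subunit of the oxoglutarate dehydrogenase complex, at 0.11 (SE 0.07, 8 of 9 pigs higher). Of 8 measured genes of other electron entry and of ubiquinone synthesis 6 were lower (median -0.06). ETFA, which carries electrons from fatty acid oxidation, had a change of -0.21 (SE 0.11) and a slope of -0.64 on the GAPDH difference that passed in limma (adjusted p = 0.0219). The slopes of DLD and SUCLA2 in the tricarboxylic acid cycle list also passed (-0.49, adjusted p = 0.0487, and -0.55, adjusted p = 0.0451, in limma). Slopes thus passed for 2 of 13 and 1 of 8 genes of these lists, against 0.769% of all tested probe sets and 2.41% of the other bright genes. In the assembly, regulator and carrier lists 0 passed. With the covariate, 7 of 13 cycle genes, 2 of 8 electron entry genes, 7 of 11 carrier genes, 11 of 16 assembly factors and 4 of 6 regulators were lower.

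Markers of other cell types showed no shift past the threshold apart from red blood cells, of whose 3 markers 2 passed in limma toward lower values in failure. Of 5 endothelial markers 4 were higher (median 0.01), of 4 measured fibroblast markers 3 (median 0.07) and of 3 measured smooth muscle markers 3 (median 0.14), with 0 past the threshold. Both measured atrial markers were higher (median 0.71), with NPPA, the gene of atrial natriuretic peptide, at 1.11 (SE 0.30, higher in 8 of 9 pigs, adjusted p = 0.432 in limma). Of 6 measured leukocyte markers, all at mean levels below the array median, 4 were lower (median -0.03), with CD8A at -0.49 (SE 0.12, lower in 8 of 9 pigs, adjusted p = 0.326 in limma). The 3 measured skeletal muscle markers had a median change of -0.00247. The part of these cell types in the subunit changes was not tested.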

How the data were processed

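The deposited values were log2 intensities per probe set for 18 Affymetrix arrays, made by the authors. Trizol extraction, RNeasy purification and labelling with the GeneChip 3' IVT Express kit are given per the labels' protocols. The submitters' processing notes name Partek, and how background, scaling and summarization were handled was not given in the sources used here. Array medians lay between 5.59 and 5.66, so a shift of most transcripts in 1 direction would not be visible if arrays were scaled to each other.

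Of 24123 probe sets, 188 controls were left out. The probe annotation pairs 10069 of the 23935 tested probe sets with 1 symbol. A further 198 probe sets carry several symbols and were not used for names, among them 5 whose symbols match the rule. Failure was compared with baseline with R 4.3.3 and limma 3.58.1 (lmFit with a term for each pig, then eBayes). P-values were two-sided and adjusted over the 23935 probe sets by the method of Benjamini and Hochberg, with a threshold of 0.05. The fit was tested on simulated data with independent noise for each probe set. Such data do not cover genes that move together within a pig. The labels give each pig's number to both of its arrays, which correlated with r from 0.449 to 0.750 after removal of group means, best with each other in 9 of 9 pigs. The number of arrays limits the precision. The animals are separate pigs, so p-values rest on the spread between animals. In limma this spread is drawn toward a value shared by all tested probe sets. For steady subunits such as COX7C (SD 0.07 over pigs, SE 0.05) the SE is therefore larger than their own spread would give.

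Members and lists were chosen with earlier results of these data known, so counts and medians over them are descriptions. The named subunits are those of set roles (core subunits of complex I, complex II, cytochrome c, isoform pairs, the main complex V subunits), the extremes of each complex, those with the smallest p in either fit, and those with the largest spread between pigs. NDUFA3, ATP5L and the subunits named for their direction in 7 of 9 pigs, their level or their symbol were named after their values were seen, as were genes named from the lists. Alternatives were other scalings, probe set choices, variance models, no block, a random effect for pig, the GAPDH covariate, each label set alone and each pig left out. The slopes on the covariate, the count without pig 5 and NDUFA4 in complex I were chosen after seeing the data. Not analysed here were the subunits encoded in mitochondrial DNA and several nuclear ones, among them CYC1, UQCRC1, UQCRFS1, COX4I1, COX5A and COX6A2.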

Additional observations from a re-analysis of the deposited data

Results flagged for a closer look

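The groups tested were the baseline values, failure values and changes of 34 named subunits, and the median changes of all subunits and of complexes I to V. Of these 108 groups of 9 values, 35 held 1 pig far from the rest, where chance alone picks out about 1 in 20 groups (5.4), and 0 of the 6 medians were among them. Members share arrays, so these groups are not independent. Some of the 34 were also named for their changes, small p or spread between pigs in these same values. The rate of 1 in 20 therefore does not strictly apply to them. Pig 5 accounts for 33 of the 35, always at the low end.

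At baseline, pig 5 lay below the other 8 pigs for the complex I subunits NDUFA5 (9.99), NDUFB10 (10.31), NDUFB11 (11.19), NDUFS6 (8.12) and NDUFV2 (11.31), for SDHB of complex II (11.77) and for the complex V subunits ATP5A1 (13.18), ATP5B (12.65), ATP5F1 (12.49), ATP5G3 (12.99) and ATP5J (10.17). The gaps were widest for NDUFS6, whose other baseline values ran from 9.37 to 10.18, and for SDHB, whose others ran from 12.48 to 12.77.

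In failure, the same pig lay below the others for the complex I subunits NDUFA13 (11.51), NDUFA5 (9.996), NDUFAB1 (12.08), NDUFB10 (9.65), NDUFB11 (10.58), NDUFS1 (10.03), NDUFS6 (7.43), NDUFS7 (11.84) and NDUFV2 (11.24), for the complex II subunits SDHA (11.36), SDHB (11.41), SDHC (8.19) and SDHD (10.16), for NDUFA4 of complex IV (13.42) and for the complex V subunits ATP5A1 (12.81), ATP5B (12.03), ATP5F1 (12.44), ATP5G1 (12.36), ATP5G2 (10.12) and ATP5G3 (12.71). For SDHC the other failure values ran from 9.59 to 10.89, and for ATP5B from 13.11 to 13.37. Neither complex III subunit and no named complex IV subunit other than NDUFA4 stood out in this pig.

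The paired change of pig 5 stood apart for ATP5B (-0.62, against -0.19 to 0.10 in the others) and for NDUFA13 (-0.75, against -0.20 to 0.06). Its change was also the lowest of the 9 pigs for 28 of 60 subunits. The GAPDH 3'/5' difference of its arrays, 2.61 and 3.55, was also outside the range of the other pigs.

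Pig 9 stood apart at the high end for COX7C in failure (13.78, against 13.27 to 13.50) and for the change of NDUFV3 (0.68, against -0.23 to 0.20), whose probe set lay at the 62.0th percentile of the array.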

How the results depend on the processing

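The count of 0 of 60 subunits past the threshold between failure and baseline held under all 21 alternatives, and 0 of 60 for the difference between label sets held under all 16 run for it. The fit without the replicate block for pig gave 0 subunits, while calls over all tested probe sets fell from 16 to 0. Its median change of -0.05 was the same by design, since every pig has both arrays. The random effect, the trended variance and the unmoderated test also leave each change as it is, so they could alter calls but no sign or median. The median over the subunits stayed below 0 under every alternative, from -0.08 to -0.000261, the latter with the GAPDH covariate. The median of complex I ran from -0.08 to 0.00342 (above 0 with the covariate), of complex II from -0.12 to -0.02, of complex III from -0.03 to 0.00863 (above 0 without pig 8 or 11 and in label set 2 alone), of complex IV from -0.04 to 0.01 and of complex V from -0.09 to -0.00530. With NDUFA4 in complex I, the medians of complexes I and IV were -0.05 and -0.00733. Of 714 values of 34 named subunits under 21 alternatives, 0 passed the threshold, 49 had the other sign and 2 moved by more than the SD between pigs, both of NDUFV2 (0.06 with the mean of its probe sets, 0.12 with its most variable one). The mean of all probe sets of a gene moved the median levels of complexes I, II and IV to 11.49, 10.30 and 12.90. The 4 subunits with a slope past the threshold became 10 with a trended, robust variance, 3 after quantile normalization and 1 to 4 when single pigs were left out. The signal of 6 dimmer probe sets below the array median limits what they show.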
